A study of Rattus norvegicus with 32 samples.

Results

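The genes described here are 10 members of the epidermal growth factor (EGF) family and its receptors, measured in rat uterus: the EGFR ligands Areg, Ereg, Egf, Tgfa and Hbegf, the neuregulins Nrg1 and Nrg2, and the receptors Egfr, Erbb2 and Erbb3. They were taken as the rows of a table of read counts for 17327 genes whose NCBI gene ID carries one of these rat symbols in RefSeq, and all 10 were found. Of these, 8 had enough counts to be tested among 13312 genes; Areg and Ereg did not and are given as counts.

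The libraries came from uteri of Sprague-Dawley rats of the NCTR colony collected at PND365 (postnatal day), with 4 libraries in each of 8 groups. Dosing by gavage, described in the labels for BPA, began in the dams on gestation day 6 and was continued in the pups themselves from postnatal day 1. Ethinyl estradiol (EE2), a synthetic estrogen used in contraception, had daily doses of 0.05 and 0.5 µg per kg body weight. Bisphenol A (BPA), a plastic monomer with weak estrogen activity, had daily doses of 2.5, 25, 250, 2500 and 25000 µg per kg. Controls received the vehicle, 0.3% carboxymethylcellulose. The title of the series names low-dose BPA and endometrial cancer. Animal, litter, batch and estrous stage are not in the labels, and the p-values therefore cover the spread between libraries only, which may be technical.

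EGF-family ligands are made as membrane proteins and are cut free by ADAM metalloproteinases. Amphiregulin, epiregulin, EGF, TGF-alpha and HB-EGF bind EGFR, and the neuregulins bind ErbB3 and ErbB4. ErbB2 binds no ligand of its own and pairs with the other receptors, and ErbB3 signals mainly through such a partner. In the rodent uterus EGFR ligands take part in the epithelial response to estrogen and, for HB-EGF, in embryo attachment.

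Promoter sequences are shown for Nrg2, Erbb2 and Hbegf, the members that passed a test below. Each is the RefSeq window of 300 bases on build GRCr8, from 250 bases before to 50 bases after the annotated start, written 5′ to 3′ on the gene's strand. Capitals mark the Sp1 GC box GGGCGG in Nrg2 and Erbb2 and the CRE half-site TGACG in Hbegf. Nrg2 lies at chr18:28072489-28072788 on the minus strand, Erbb2 at chr10:83907351-83907650 on the plus strand and Hbegf at chr18:28390171-28390470 on the minus strand.
Nrg2: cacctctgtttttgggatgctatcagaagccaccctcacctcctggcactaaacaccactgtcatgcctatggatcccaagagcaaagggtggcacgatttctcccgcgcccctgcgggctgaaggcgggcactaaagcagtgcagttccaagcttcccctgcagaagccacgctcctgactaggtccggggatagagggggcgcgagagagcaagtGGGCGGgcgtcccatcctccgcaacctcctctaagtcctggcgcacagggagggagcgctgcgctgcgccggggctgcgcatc
Erbb2: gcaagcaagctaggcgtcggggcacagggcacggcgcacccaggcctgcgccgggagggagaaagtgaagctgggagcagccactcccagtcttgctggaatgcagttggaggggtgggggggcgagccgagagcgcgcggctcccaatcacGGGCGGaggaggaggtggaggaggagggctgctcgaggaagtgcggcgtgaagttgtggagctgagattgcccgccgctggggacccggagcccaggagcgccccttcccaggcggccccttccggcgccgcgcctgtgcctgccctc
Hbegf: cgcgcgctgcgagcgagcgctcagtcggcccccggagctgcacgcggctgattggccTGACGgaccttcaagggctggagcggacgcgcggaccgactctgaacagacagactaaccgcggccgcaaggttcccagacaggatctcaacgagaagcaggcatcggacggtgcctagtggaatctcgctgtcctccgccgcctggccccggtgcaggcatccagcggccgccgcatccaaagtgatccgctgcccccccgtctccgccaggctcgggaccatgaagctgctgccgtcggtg

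The GC box began at position -33 from the start in Nrg2 and at -98 in Erbb2, and the CRE half-site at -193 in Hbegf. Over 33469 RefSeq promoters of this length, read on both strands, 33.1% held GGGCGG and 21.2% held TGACG, so both runs of letters are common. A full estrogen response element, an inverted repeat of GGTCA with 3 bases between its arms, was in 0.0269% of promoters, its half-site AGGTCA in 16.2%, the AP-1 site TGACTCA in 4.63% and the TATA box TATAAA in 14.2%. The full element shares the letters GGTCA with the half-site. None of these 4 runs was in the windows shown. Promoter windows were matched for 7 of the 10 members.

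Total counts were 11777809 to 24661856 per library, so 3 counts correspond to between 0.13 and 0.267 CPM (read counts scaled to a common library size, with sizes corrected by the TMM method). Mean totals were 13710994 in control and, over the BPA doses from low to high, 13921222, 14015998, 18603102, 18976666 and 19093263. In 4 libraries the median correlation with the others was lower than in the rest: BPA 2.5 libraries 1 and 3, BPA 250 library 1 and BPA 25000 library 3. Markers of the labelled tissue were present, with 8 of 8 smooth muscle genes, 7 of 7 stromal genes and 10 of 11 simple epithelium genes in the table and none of these at 0 in all libraries of a group. CPM is not corrected for transcript length, so levels were not compared between genes. In whole tissue, fewer cells of a type and less RNA per cell cannot be told apart.

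Nrg2, which encodes a ligand of ErbB3 and ErbB4, averaged below control in every exposed group. In edgeR it passed at BPA 2.5, 25 and 250 and at no other single dose of BPA or EE2. In the controls it was at 12.7, 21.2, 21.3 and 16.9 CPM. Over the BPA doses from low to high, the libraries were at 3.42, 4.47, 8.26 and 13.1 CPM at 2.5, at 3.82, 5.85, 4.04 and 9.37 CPM at 25 and at 3.23, 6.17, 4.46 and 3.93 CPM at 250. At 2500 they were at 10.3, 6.49, 23.9 and 11.3 CPM, and at 25000 at 14.7, 9.07, 8.89 and 8.38 CPM. All libraries of BPA 25 and 250 lay under the lowest control, whereas those of the other 3 doses overlapped the controls.

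By edgeR's quasi-likelihood test with Benjamini-Hochberg adjustment over 13312 genes, Nrg2 fell at BPA 250 to 4.45 ± 1.26 CPM, against 18.02 ± 4.10 CPM in control (SD, n = 4 each), with a log2 fold change of -2.02 (SE 0.41, adjusted p = 0.00879). That is 0.247 times the control level. Leaving out each of the 8 libraries compared in turn kept the call in 8 of 8, with log2 fold changes of -2.23 to -1.86 and an adjusted p of at most 0.0427, and without the 4 libraries that stood apart the log2 fold change was -1.87 (adjusted p = 0.0219). At BPA 25 it fell to 5.77 ± 2.57 CPM against 18.02 ± 4.10 CPM in control (log2 fold change -1.64, SE 0.41, adjusted p = 0.0393). That call was kept without BPA 25 library 4 and lost without any other single library of the groups compared (adjusted p of 0.0591 to 0.164). At BPA 2.5 it fell to 7.30 ± 4.37 CPM against 18.02 ± 4.10 CPM in control (log2 fold change -1.30, SE 0.40, adjusted p = 0.0343). That call was lost without any 1 of control libraries 2, 3 and 4 or BPA 2.5 libraries 1, 2 and 3 (adjusted p of 0.0579 to 0.137), and without the 4 libraries that stood apart (log2 fold change -1.03, adjusted p = 0.267).

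At BPA 2500 and 25000, Nrg2 averaged 13 ± 7.56 and 10.3 ± 2.99 CPM against 18.02 ± 4.10 CPM in control and did not pass (log2 fold changes -0.47 and -0.81, adjusted p = 0.735 and 0.26, edgeR); voom passed it at BPA 25000 (log2 fold change -0.91, adjusted p = 0.00647). It was lowest at BPA 250 among the 8 groups, and no neighbouring pair in the order of group means differed by more than both SDs. The F test for any difference among BPA groups and control passed (adjusted p = 0.00238, edgeR) and was kept in 24 of 24 fits without 1 library. The mean of the 5 BPA doses was also below control, by a log2 fold change of -1.25 (SE 0.28, adjusted p = 0.038, edgeR). That last call was kept without 16 of the 24 libraries and lost without any 1 of control libraries 2, 3 and 4, BPA 250 library 4, BPA 2500 libraries 2 and 4 and BPA 25000 libraries 2 and 4 (adjusted p of 0.0506 to 0.157). Under EE2, Nrg2 was at 9.63, 14.2, 5.20 and 13.1 CPM at 0.05 and at 8.41, 12.9, 7.96 and 15.3 CPM at 0.5. All 8 EE2 libraries were below the control mean of 18.02 CPM and both groups overlapped the controls. Neither EE2 dose passed (log2 fold changes -0.78 and -0.69, adjusted p = 0.461 and 0.417, edgeR). The mean of the EE2 doses did not pass either (log2 fold change -0.73, SE 0.33, adjusted p = 0.292, edgeR). Voom passed Nrg2 at EE2 0.05 and for the mean of the EE2 doses.

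Markers of nerve and Schwann cells, where neuregulins are well studied, had lower mean levels than control in every exposed group. Summed over 8 of 8 listed genes, none at 0 in a whole group, they were at 303 to 476 CPM at BPA 2.5, 351 to 509 CPM at BPA 25 and 426 to 560 CPM at BPA 250, against 505 to 740 CPM in control. They were at 309 to 597 CPM at BPA 2500 and 241 to 399 CPM at BPA 25000. Smooth muscle markers summed to 20060 to 39200 CPM in control. They were at 12400 to 30570 CPM at BPA 2.5, 15750 to 20890 CPM at BPA 25 and 20120 to 25600 CPM at BPA 250. Where Nrg2 did not pass in edgeR, they were at 17590 to 24510 CPM at BPA 2500 and 18680 to 23560 CPM at BPA 25000. At EE2 0.05 and 0.5 they were at 16970 to 21610 and 15250 to 30050 CPM. The part of these cell types in the Nrg2 values was not tested. In GRCr8 Nrg2 overlaps Psd2 on the opposite strand, and the use of strand in counting is not given in the sources used here, so reads of the pair may not be separated. Psd2 held 1319 counts in all, against 5199 for Nrg2, and was at 1.53 ± 1.19 CPM at BPA 250 and 2.94 ± 0.41 CPM in control (log2 fold change -0.96, SE 0.55, adjusted p = 0.247, edgeR).

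Nrg1, the neuregulin best known from nerve and heart, passed in 0 of the 13 comparisons in edgeR, with 0 at an unadjusted p under 0.05 and 0 in DESeq2 and voom. It ranged from 2.44 to 16.3 CPM over all libraries, and its libraries within a group spread as widely as the groups. The highest library, at 16.3 CPM, and libraries at 2.72, 2.85 and 6.47 CPM were all of BPA 25, against 12.2, 2.44, 8.41 and 8.85 CPM in control. Its log2 fold changes against control lay between -0.64 (SE 0.52) at BPA 25000 and -0.08 (SE 0.51) at BPA 2500, below 0 at all 7 exposures.

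**Figure D1:**
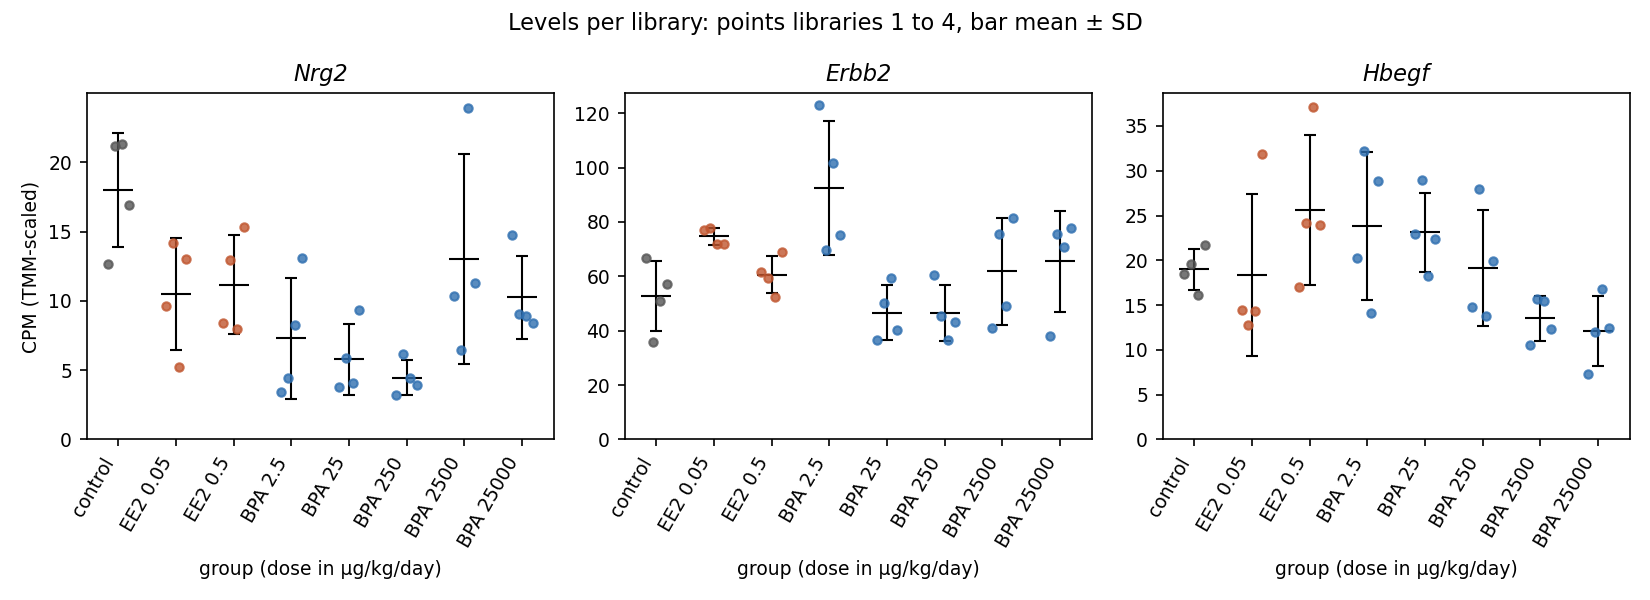
Levels of Nrg2, Erbb2 and Hbegf per library (CPM, TMM-scaled, linear axis from 0) in control, EE2 and BPA groups, with doses in µg per kg per day; points are libraries and bars the mean ± SD of 4. Nrg2 libraries at BPA 25 and 250 lie under all controls, Erbb2 libraries at BPA 2.5 lie above all controls, and Hbegf means run from 23.8 CPM at BPA 2.5 to 12.1 CPM at BPA 25000.

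Erbb2, the receptor without a ligand of its own, was higher at the lowest BPA dose. It was at 123, 69.7, 102 and 75.3 CPM at BPA 2.5, against 66.7, 35.8, 51.1 and 57.3 CPM in control. All 4 exposed libraries lay above the highest control, by the most in BPA 2.5 libraries 1 and 3. Erbb2 rose to 92.4 ± 24.6 CPM against 52.7 ± 12.99 CPM in control (SD, n = 4 each), a log2 fold change of 0.81 (SE 0.23, adjusted p = 0.0249, edgeR).

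BPA 2.5 libraries 1 and 3 are among those that stood apart. Without the 4 such libraries the log2 fold change was 0.47 (adjusted p = 0.373), and the call was lost without any 1 of control libraries 2 and 3 or BPA 2.5 libraries 1 and 3 (adjusted p of 0.067 to 0.121). Ciliated cell markers, 8 of 9 in the table and none at 0 in a whole group, summed to 842 and 559 CPM in BPA 2.5 libraries 1 and 3 and to 67.4 and 34.9 CPM in libraries 2 and 4, against 32.2 to 41.5 CPM in control. Simple epithelium markers summed to 951 to 2463 CPM at BPA 2.5, against 1072 to 2209 CPM in control. Their part in the Erbb2 value was not tested.

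At the other BPA doses Erbb2 averaged 46.7 ± 10.2 CPM at 25, 46.5 ± 10.1 CPM at 250, 61.8 ± 19.8 CPM at 2500 and 65.5 ± 18.6 CPM at 25000, all overlapping the controls and none passing. The F test over BPA groups and control passed (adjusted p = 0.00747, edgeR) and was lost without BPA 2.5 library 1 (adjusted p = 0.0569) or without the 4 libraries that stood apart (adjusted p = 0.13). At EE2 0.05 Erbb2 was at 77.2, 77.8, 72.0 and 72.1 CPM against 35.8 to 66.7 CPM in control. All 4 of these libraries were above all controls, but the value did not pass after adjustment (log2 fold change 0.50, SE 0.23, adjusted p = 0.413, edgeR). At EE2 0.5 it averaged 60.6 ± 6.92 CPM and overlapped the controls at 52.7 ± 12.99 CPM (log2 fold change 0.20, SE 0.23).

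Erbb3, which signals with ErbB2, ranged from 15.02 to 88.6 CPM and passed in 0 of the 13 comparisons in edgeR, with 0 at an unadjusted p under 0.05, 0 in DESeq2 and 2 in voom. At BPA 25000 its libraries were at 21.9, 87.2, 42.9 and 88.6 CPM, against 56.9, 15.02, 39.7 and 37.7 CPM in control. That group held the highest 2 libraries of the study and 1 under 3 of the controls (log2 fold change 0.69, SE 0.39, adjusted p = 0.33, edgeR). At BPA 2.5 it was at 54.9, 60.8, 42.8 and 60.3 CPM, all above the control mean of 37.3 CPM, and did not pass (log2 fold change 0.55, SE 0.39, adjusted p = 0.376, edgeR).

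Erbb2 and Erbb3 levels went together over the 32 libraries. Of the 28 pairs of tested members, this pair had the highest correlation of log2 CPM, with Pearson's r of 0.684 (permutation p = 2e-05, adjusted over 28 pairs 0.00056) and Spearman's rho of 0.734 (permutation p = 1e-05, the smallest that 100000 permutations can give, adjusted 0.00028). Without the 2 libraries farthest from the median Erbb2 level r was 0.667, and after subtracting group means it was 0.677. Pearson's r also passed for Nrg1 and Egfr (r = 0.495, adjusted permutation p = 0.0376; rho = 0.497, adjusted 0.0564) and, in the negative direction, for Egf and Nrg2 (r = -0.519, adjusted permutation p = 0.0312; rho = -0.479, adjusted 0.058). Without the 2 farthest libraries these were 0.429 and -0.518. The other 25 pairs did not pass.

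**Figure D2:**
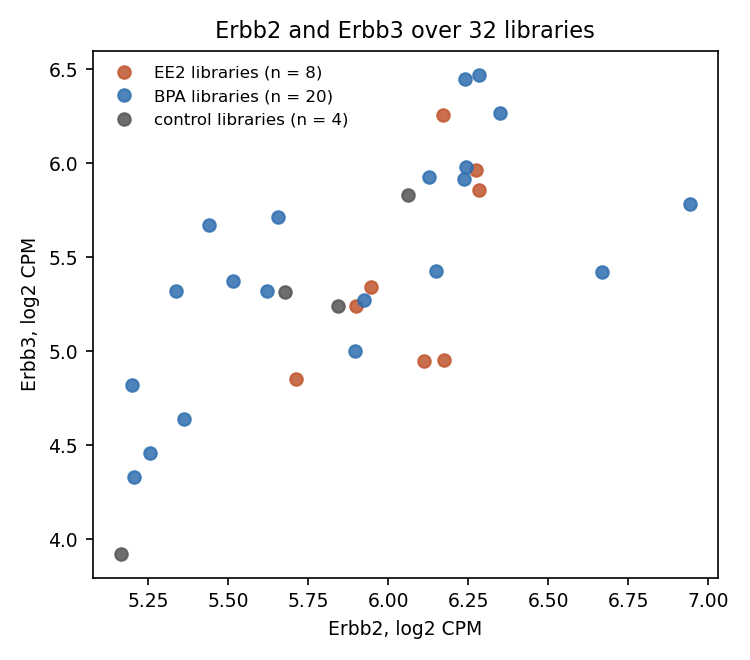
Erbb3 against Erbb2 in log2 CPM, 1 point per library, coloured by EE2 (n = 8), BPA (n = 20) and control (n = 4). The points run from low in both to high in both, with Pearson's r of 0.684 over 32 libraries.

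Egfr, the receptor of the EGF-like ligands, ranged from 10.6 to 62.9 CPM and passed in 0 of the 13 comparisons in edgeR, with 0 at an unadjusted p under 0.05, 0 in DESeq2 and 1 in voom. It was highest on average at BPA 2500, with 27.7, 52.9, 62.9 and 28.7 CPM, against 29.1, 22.1, 36.2 and 24.7 CPM in control. The groups overlapped, 3 of 4 exposed libraries were above the control mean of 28.02 CPM and the value did not pass (log2 fold change 0.62, SE 0.40, adjusted p = 0.634, edgeR). Its log2 fold changes at the other exposures lay between -0.13 (SE 0.40) at EE2 0.5 and 0.54 (SE 0.40) at BPA 250.

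Hbegf, the ligand tied to embryo attachment, fell with rising BPA dose. In the controls it was at 18.5, 19.6, 16.2 and 21.7 CPM. At BPA 2.5 it was at 20.3, 32.2, 14.1 and 28.8 CPM, at 25 at 22.9, 28.9, 18.2 and 22.4 CPM and at 250 at 14.8, 27.95, 13.8 and 19.97 CPM. At 2500 it was at 10.6, 15.7, 15.5 and 12.3 CPM and at 25000 at 7.28, 11.95, 16.8 and 12.4 CPM. At 2.5 and 25, 3 of 4 libraries lay above the control mean, and at 2500 and 25000 all 4 lay below it. BPA 2500 alone did not overlap the controls.

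Across the 5 BPA doses the log2 level of Hbegf fell by 0.27 per 10-fold rise in dose (SE 0.07, adjusted p = 0.0283, edgeR). Group means were 18.99 ± 2.32 CPM in control and 23.8 ± 8.22, 23.1 ± 4.402, 19.1 ± 6.48, 13.5 ± 2.52 and 12.1 ± 3.91 CPM over the doses from low to high (SD, n = 4 each). Leaving out each of the 16 libraries of BPA 2.5, 25, 2500 and 25000 in turn kept the trend in 12 cases. It was lost without BPA 2.5 library 1 (adjusted p = 0.0645) or BPA 25000 library 1, 2 or 4 (adjusted p = 0.0683, 0.0584 and 0.0517). Total counts were higher at the upper 3 doses, and with the log2 library total as a covariate the slope was -0.35 (adjusted p = 0.0233). Ciliated cell markers summed to 34.9 to 842 CPM at 2.5, 74.0 to 160 CPM at 25, 51.0 to 94.3 CPM at 250, 27.7 to 239 CPM at 2500 and 34.0 to 58.7 CPM at 25000, and their part in the trend was not tested. Without the 4 libraries that stood apart the slope was -0.38 (adjusted p = 0.0233). With only BPA 2.5, 25, 2500 and 25000 in the fit the slope was -0.27 with an adjusted p of 0.102. BPA 250, the middle dose, has no weight in the trend and was not in that fit. The F test over BPA groups and control passed narrowly for Hbegf (adjusted p = 0.0447, edgeR) and was lost without any 1 of 18 of the 24 libraries (adjusted p up to 0.0925). No single dose passed against control in edgeR: the value at BPA 25000 was a log2 fold change of -0.65 (SE 0.30, adjusted p = 0.233) and at BPA 2500 one of -0.49 (SE 0.30, adjusted p = 0.618). Voom passed Hbegf at BPA 25000 (log2 fold change -0.77, adjusted p = 0.0114). Under EE2 Hbegf averaged 18.4 ± 9.07 CPM at 0.05 and 25.6 ± 8.39 CPM at 0.5, against 18.99 ± 2.32 CPM in control, with overlap and no call.

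Tgfa, which encodes TGF-alpha, was lowest at the higher EE2 dose. It was at 9.73, 7.73, 9.01 and 10.1 CPM at EE2 0.5, against 21.4, 16.5, 31.96 and 15.8 CPM in control. All 4 exposed libraries lay under the lowest control, with means of 9.15 ± 1.05 and 21.4 ± 7.45 CPM. The log2 fold change of -1.23 (SE 0.36) had an unadjusted p of 0.00193 and an adjusted p of 0.0921 in edgeR, which does not pass. It passed in DESeq2 (adjusted p = 0.0321), in limma voom with sample weights (0.0254), in edgeR with only these groups (0.0357) and in edgeR without the 4 libraries that stood apart (0.0443). Stratified epithelium markers, 8 of 9 in the table and Krt4 at 0 in all controls, summed to 37.0 to 255 CPM at EE2 0.5, against 8.91 to 25.4 CPM in control, and their part in the Tgfa value was not tested. Leaving out control library 3, the highest, gave a log2 fold change of -0.97 and an adjusted p of 0.339.

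At EE2 0.05 Tgfa was at 12.1, 9.44, 21.8 and 13.3 CPM, 3 of 4 libraries below the control mean of 21.4 CPM (log2 fold change -0.60, SE 0.35, adjusted p = 0.529, edgeR). At BPA 25000 it was at 10.5, 8.68, 15.9 and 12.5 CPM, with 4 of 4 below that mean (log2 fold change -0.85, SE 0.36, adjusted p = 0.18, edgeR). The mean of the BPA doses was above the mean of the EE2 doses by a log2 difference of 0.55 (SE 0.22), which did not pass (adjusted p = 0.225, edgeR). At BPA 2.5 the libraries at 32.6 and 6.31 CPM were the highest and lowest of the study.

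Egf varied least among the tested members, from 2.96 to 6.97 CPM. At BPA 2.5 it was at 6.97, 6.00, 5.26 and 5.16 CPM, against 4.397, 3.92, 4.93 and 4.39 CPM in control. The groups did not overlap, at means of 5.85 ± 0.84 and 4.41 ± 0.41 CPM, and the value did not pass (log2 fold change 0.41, SE 0.22, adjusted p = 0.246, edgeR). Egf passed in 0 of the 13 comparisons in edgeR, with 0 at an unadjusted p under 0.05 and 0 in DESeq2 and voom.

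**Figure D3:**
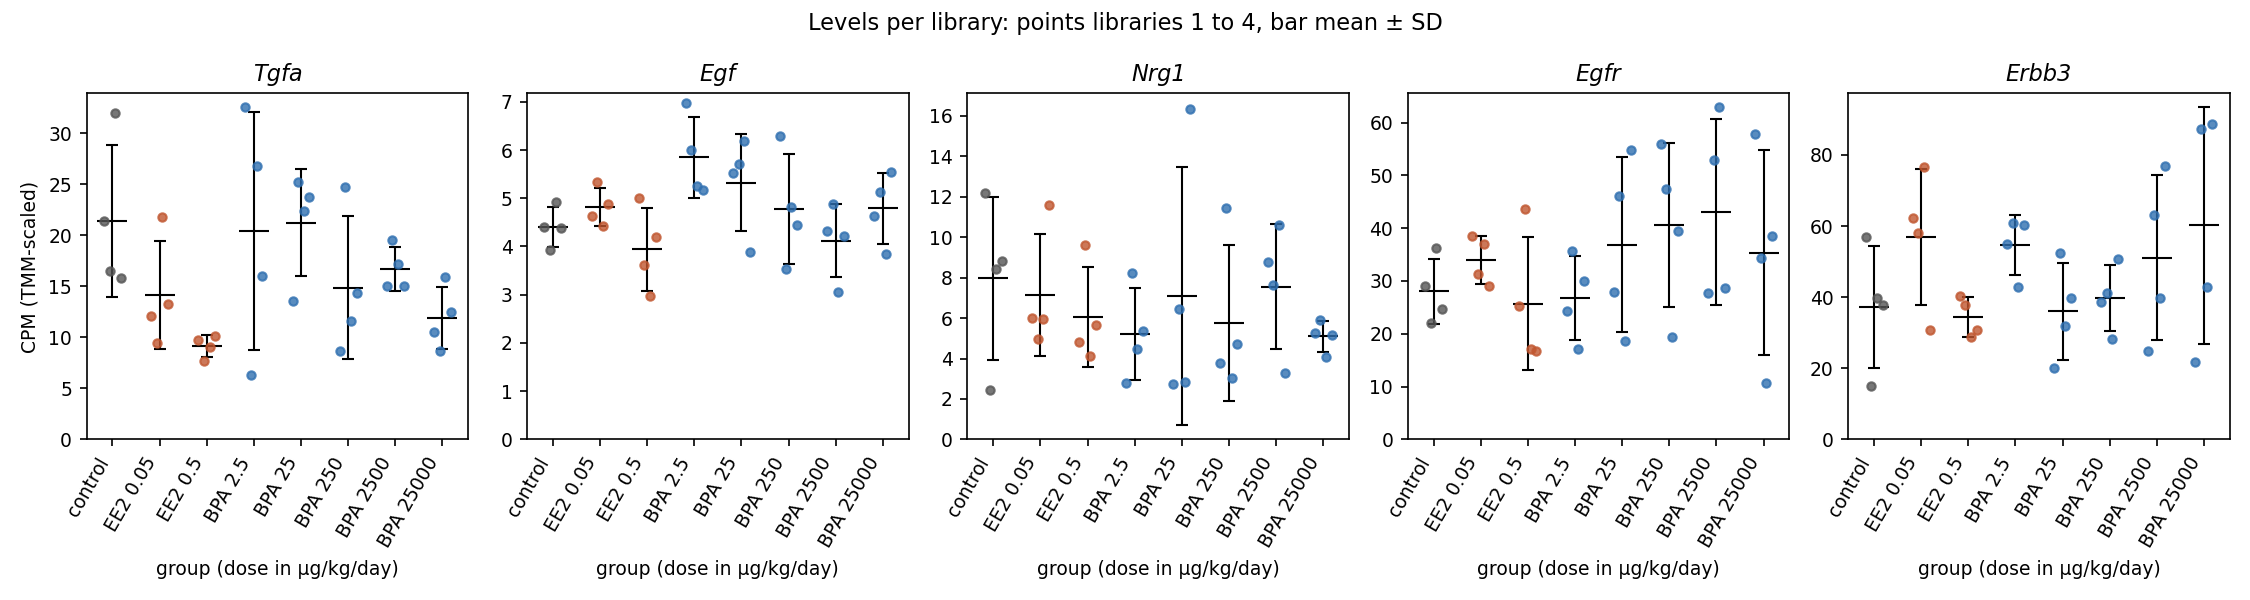
Levels of Tgfa, Egf, Nrg1, Egfr and Erbb3 per library (CPM, TMM-scaled, linear axes from 0) in control, EE2 and BPA groups, with doses in µg per kg per day; points are libraries and bars the mean ± SD of 4. Tgfa at EE2 0.5, with 7.73 to 10.1 CPM, and Egf at BPA 2.5, with 5.16 to 6.97 CPM, are the groups that do not overlap control.

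Areg and Ereg, whose products amphiregulin and epiregulin bind EGFR, were close to absent from these libraries. Areg had 78 counts in all, spread over 22 of 32 libraries, and Ereg 28 counts in 3 libraries. Areg counts were 1, 1, 1 and 3 at EE2 0.05 and 3, 3, 4 and 4 at EE2 0.5, against 2, 4, 0 and 0 in control. Over the BPA doses from low to high they summed to 2, 8, 6, 15 and 21, against 6 in control. The libraries of BPA 25000 held 7, 5, 6 and 3 counts. In an edgeR fit without a filter the log2 fold change of Areg at BPA 25000 was 1.18 (adjusted p = 0.649).

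Of the Ereg counts, 24 were in BPA 250 library 1, at 1.34 CPM, and 2 each in BPA 25 libraries 1 and 4. The other 29 libraries had 0, which allows up to 3 counts in each, or between 0.13 and 0.267 CPM; these limits cover counting error only. BPA 250 library 1 is 1 of the 4 that stood apart. Of 9 ovary markers, listed after the Ereg counts were seen, 0 were highest there. Inha, Cyp11a1 and Lhcgr were at 0.612, 0.891 and 7.79 CPM in that library, against up to 6.69, 4.29 and 121 CPM in the other 31. A part of ovary tissue in the Ereg counts was not tested.

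**Figure D4:**
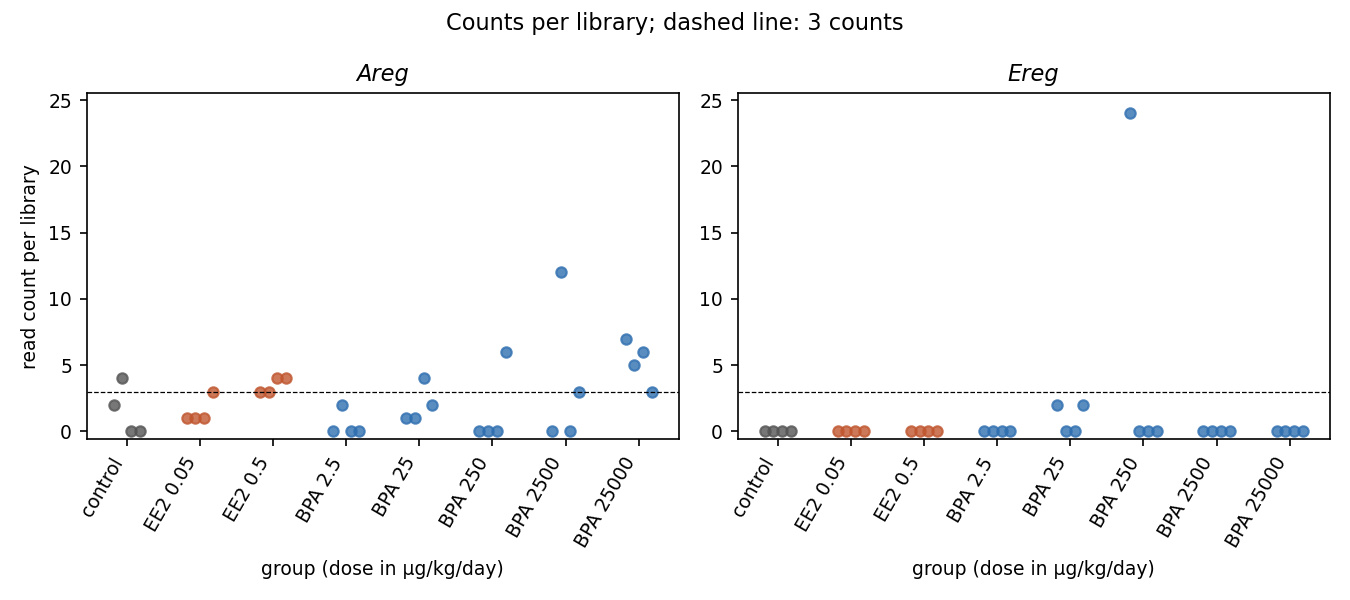
Read counts of Areg and Ereg per library (linear axis) in control, EE2 and BPA groups, with doses in µg per kg per day; points are libraries and the dashed line marks 3 counts. Most points lie at or under that line, and the 24 Ereg counts of BPA 250 library 1 stand alone.

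Counted over the 8 tested members, few passed in each comparison, and each is read against the share of all 13312 genes that passed in it. At BPA 2.5, 2 of 8 passed (Erbb2 higher, Nrg2 lower), where 11.4% of all genes did; the median log2 fold change was 0.13 for the members and 0.046 for all genes. At BPA 25, 1 of 8 passed (Nrg2, lower), where 1.92% of all genes did, with medians of -0.03 and 0.0036. At BPA 250, 1 of 8 passed (Nrg2, lower), where 8.79% of all genes did, with medians of -0.083 and -0.022. The F test passed 3 of 8, where 34.3% of all genes passed, so the members stood close to the background. The mean of the BPA doses passed 1 of 8, where 1.34% of all genes did, and the dose trend 1 of 8, where 4.62% did. These comparisons share the 4 control libraries, other than the trend.

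At BPA 2500, edgeR passed 0 of 8 members and 0% of all genes, with 0 members at an unadjusted p under 0.05. DESeq2 and voom also passed 0 members, and 87 and 0 of 13312 genes. At BPA 25000, edgeR passed 0 of 8 members and 2.32% of all genes, with 2 members at an unadjusted p under 0.05. DESeq2 passed 0 members and 770 of 13312 genes. Voom passed 4 members (Tgfa, Hbegf and Nrg2 lower, Erbb3 higher) and 4116 of 13312 genes. At EE2 0.05, edgeR passed 0 of 8 members and 0.0451% of all genes, with 1 member at an unadjusted p under 0.05. DESeq2 passed 0 members and 65 of 13312 genes, and voom 1 member (Nrg2) and 1375 genes. At EE2 0.5, edgeR passed 0 of 8 members and 0.556% of all genes, with 1 member at an unadjusted p under 0.05. DESeq2 and voom each passed 1 member (Tgfa), and 442 and 1221 of 13312 genes. For the mean of the EE2 doses against control, edgeR passed 0 of 8 members and 0.0676% of all genes. In that comparison 2 members had an unadjusted p under 0.05. DESeq2 passed 0 members and 333 of 13312 genes, and voom 2 members (Tgfa and Nrg2) and 1856 genes. For the mean of BPA against the mean of EE2, edgeR passed 0 of 8 members and 0.841% of all genes. In that comparison 2 members had an unadjusted p under 0.05. DESeq2 passed 0 members and 383 of 13312 genes, and voom 1 member and 510 genes. Between EE2 0.5 and EE2 0.05, edgeR passed 0 of 8 members and 0.015% of all genes, with 0 members at an unadjusted p under 0.05. DESeq2 and voom also passed 0 members, and 14 and 70 of 13312 genes.

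**Figure D5:**
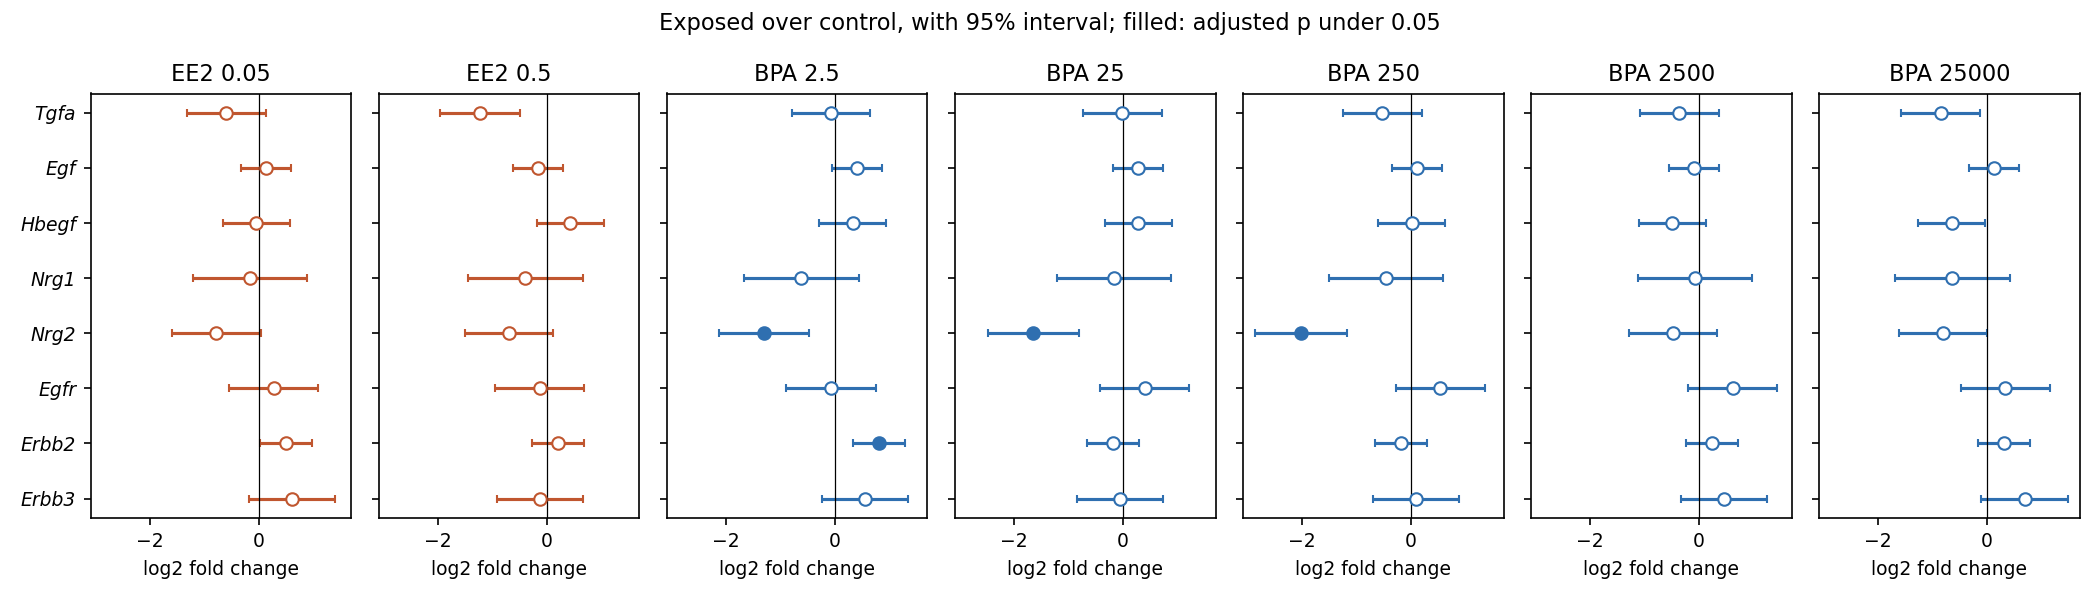
Log2 fold changes of the 8 tested members, exposed over control, with 95% intervals, in 1 panel per exposed group; filled points passed an adjusted p of 0.05 in edgeR. Filled points are Nrg2 at BPA 2.5, 25 and 250 (-1.30, -1.64 and -2.02) and Erbb2 at BPA 2.5 (0.81).

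The remaining genes of the ErbB pathway were taken as 5 lists of 63 genes, 57 of them tested: other ErbB ligands and receptors, ligand shedding, inhibitors, signal transducers and ERK response genes. At BPA 250, 10 of 57 passed (17.5%), 4 higher and 6 lower, where 8.79% of all genes did. At each of BPA 2.5 (Cnih1, Gab1 and Etv5), 25 (Spry1, Map2k2 and Akt1) and 25000 (Cnih1, Cblb and Plcg1), 3 of 57 passed (5.26%), where 11.4%, 1.92% and 2.32% of all genes did. The F test passed 19 of 57 (33.3%), where 34.3% of all genes passed. The mean of the BPA doses passed 1 (Map2k2, 1.75%) and the dose trend 1 (Spry1, 1.75%), where 1.34% and 4.62% of all genes passed. Without the 4 libraries that stood apart, edgeR passed 0 of 57 at BPA 2.5, 7 at BPA 25 (12.3%), 6 at BPA 250 (10.5%) and 5 at BPA 25000 (8.77%), where 3.92%, 10.2%, 6.58% and 5.59% of all genes passed in that fit. It then passed 3 for the mean of the BPA doses (5.26%) and 0 for the trend, where 4.68% and 1.19% of all genes passed. In edgeR 0 of 57 passed at EE2 0.05, EE2 0.5 and BPA 2500, with 7 at an unadjusted p under 0.05 in each.

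Erbb4, also a neuregulin receptor, rose at BPA 250, where it was the only 1 of 4 other ErbB ligands and receptors to pass. It was at 25.0, 0.0454, 8.02 and 8.08 CPM at BPA 250, against 0.0862, 0.592, 0 and 0.557 CPM in control. In 3 of 4 exposed libraries it was above all controls, in 1 it was under 3 of them, and the highest was the library that stood apart (log2 fold change 5.0, SE 1.29, adjusted p = 0.021, edgeR; 4.06 and adjusted p = 0.0446 without the libraries that stood apart). Nrg2 was lowest in that group. At BPA 2500 Erbb4 was at 3.09, 6.25, 0.702 and 2.06 CPM, all above the highest control. It did not pass there (log2 fold change 3.24, SE 1.24, adjusted p = 0.364, edgeR), where 0% of all genes passed. At BPA 25000 Erbb4 was at 0.91, 16.3, 0.219 and 11.8 CPM and did not pass (log2 fold change 4.51, SE 1.28, adjusted p = 0.0527, edgeR). Without the libraries that stood apart, 1 of them in this group, it passed there as well (log2 fold change 4.93, SE 1.22, adjusted p = 0.021, edgeR).

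Among the inhibitors, Spry1, a Sprouty protein that dampens receptor signalling to ERK, rose at BPA 25 and 250. It averaged 49.9 ± 15.95 CPM at BPA 25 and 59.8 ± 12.4 CPM at BPA 250, against 25.3 ± 8.58 CPM in control (log2 fold changes 0.98 and 1.24, adjusted p = 0.0393 and 0.00641, edgeR). Cblb, a ubiquitin ligase acting on activated receptors, rose at BPA 25000 to 46.8 ± 10.6 CPM against 27.4 ± 2.55 CPM in control (log2 fold change 0.77, SE 0.19, adjusted p = 0.0314, edgeR). It averaged 44.4 ± 5.09 CPM at BPA 2500, with all libraries above the highest control, but did not pass there in edgeR. At BPA 250 its log2 fold change was 0.74 (SE 0.19, adjusted p = 0.0194, edgeR; 0.0569 without the libraries that stood apart). Ptpn1, a phosphatase of receptor kinases, fell there (log2 fold change -0.92, SE 0.28, adjusted p = 0.0412, edgeR; 0.116 without those libraries).

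Among the transducers, the kinases Akt1 and Map2k2 (MEK2) fell at BPA 25 and 250. Akt1 averaged 62.9 ± 10.4 CPM at BPA 25 and 64.1 ± 9.40 CPM at BPA 250, against 112 ± 7.52 CPM in control (log2 fold changes -0.83 and -0.80, adjusted p = 0.0273 and 0.00955, edgeR). Map2k2 averaged 40.5 ± 8.07 CPM at BPA 25 and 41.7 ± 4.98 CPM at BPA 250, against 84.3 ± 10.2 CPM in control (log2 fold changes -1.06 and -1.01, adjusted p = 0.0273 and 0.00997, edgeR). At BPA 250 Pik3ca, a catalytic subunit of PI 3-kinase, rose (log2 fold change 0.47, SE 0.14, adjusted p = 0.0424, edgeR). These 3 calls at BPA 250 held without the libraries that stood apart (adjusted p = 0.0199, 0.0268 and 0.0438). At BPA 2.5 the ERK-responsive factor Etv5 fell (log2 fold change -1.32, SE 0.35, adjusted p = 0.0155, edgeR), which was not called without those libraries (log2 fold change -0.83, adjusted p = 0.27).

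Of 11 tested genes of the estrogen and progesterone response, Igf1, a growth factor induced by estrogen in the uterus, passed below control at BPA 2.5 and 25000. It averaged 105 ± 20.3 CPM at BPA 2.5 and 120 ± 66.3 CPM at BPA 25000, against 441 ± 198 CPM in control (log2 fold changes -2.08 and -1.88, adjusted p = 0.00393 and 0.0245, edgeR). Without the libraries that stood apart the adjusted p was 0.0614 at BPA 2.5 and 0.0204 at BPA 25000. The mean of the BPA doses also passed for Igf1 (log2 fold change -1.4, SE 0.29, adjusted p = 0.0242, edgeR). In the other exposed groups Igf1 averaged from 161 CPM at EE2 0.5 to 229 CPM at BPA 25, and none passed in edgeR. Pgr, the progesterone receptor, fell at BPA 2.5 to 125 ± 39.6 CPM against 265 ± 50.3 CPM in control (log2 fold change -1.08, SE 0.35, adjusted p = 0.045, edgeR). Without those libraries its adjusted p in edgeR was 0.341. At BPA 2.5, 2 of the 11 genes passed, where 11.4% of all genes did. At BPA 25000 and for the BPA mean, 1 of the 11 passed, where 2.32% and 1.34% of all genes did.

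For each member that passed a test, the 3 genes with the most similar levels were found by Pearson's correlation of log2 CPM over 32 libraries and 13221 genes, as a description that shares libraries and depth. For Nrg2 they were Scly (r = 0.869), Anapc5 (0.857) and Hdac1l (0.851). For Erbb2 they were Pced1b (0.865), Nectin2 (0.845) and Grb7 (0.841). Grb7 lies on the same chromosome as Erbb2 and is the coding gene 2 places along from it in GRCr8. For Hbegf they were Epn2 (0.780), Ube2l3 (0.780) and Rap1gds1 (0.771). After subtracting group means, the r of these 9 pairs lay between 0.643 and 0.827.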

How the data were processed

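RNA of 32 uterus libraries, extracted as total RNA by Qiagen RNeasy Lipid columns per the labels, was analysed as counts of reads per gene deposited by the authors, not normalised, for 17327 genes. Per the submitters' processing notes, bcl2fastq, TopHat and edgeR were used with build rn5. No tool version, annotation or strand setting is stated (not given in the sources used here). The gene IDs were matched to symbols through RefSeq on GRCr8, for names and neighbours only: 17167 matched and 160, with 1.82% of counts, did not. Promoters come from RefSeq on GRCr8. No 2 columns were identical, and the 48 pairs of libraries within groups all differed by more than sampling noise.

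Groups came from the labels. Tests used edgeR 4.0.16 in R 4.3.3. The filterByExpr step (minimum count 10, minimum total 15) left 13312 genes, TMM scaled the libraries, and 1 quasi-likelihood model with a mean per group was fitted to all 32 libraries. Tests were adjusted by Benjamini-Hochberg over all tested genes, with a threshold of 0.05, in 13 comparisons; SEs are the log2 fold change divided by the square root of F. CPM uses TMM-scaled sizes, and correlations use log2 CPM with a prior count of 2. Correlations of members were tested with 100000 permutations. Steps were tested on simulated counts.

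The members, lists and tests were chosen with earlier results of these data known. All 10 members are named. Of the other lists, up to 2 genes with the highest and 2 with the lowest log2 fold change among those that passed per list and comparison may be named, and some others were named because counts were 5 or fewer. The marker lists covered simple, stratified and ciliated epithelium, smooth muscle, stroma, endothelium, nerve and Schwann cells, macrophages and fat cells. Alternatives were DESeq2's size factors, no filter, a filter of 1 CPM in 16 libraries, DESeq2 1.42.0, limma 3.58.1 voom with sample weights, only the groups compared, a threshold of 0.1, leaving out each library, and leaving out the 4 libraries that stood apart. A library-total covariate and pathway counts without those 4 were added after the data were seen.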

Additional observations from a re-analysis of the deposited data

Results flagged for a closer look

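Values were screened within each group of 4 libraries for a library far from the other 3, by Dixon's criterion. Of 74 groups with any spread, 7 were flagged. Most flags were of Areg or Ereg, whose libraries mostly held few counts or 0. A library with counts beside 0 in the others is always flagged, so the chance rate of about 1 in 20 does not apply there. The number of flags is therefore not read as more than chance. In EE2 0.05 library 4, Hbegf was at 31.9 CPM while the other 3 were at 12.8 to 14.4 CPM, and Nrg1 was at 11.6 CPM while the others were at 4.98 to 6.03 CPM. Areg was also apart in that library, at 0.176 CPM against 0.0642 to 0.0732 CPM, but this is 3 counts against 1 in each of the others. In BPA 25000 library 1, Nrg2 was at 14.7 CPM while the others were at 8.38 to 9.07 CPM. Ereg stood apart in BPA 250 library 1, at 1.34 CPM against 0 in the others. Areg stood apart in BPA 2.5 library 2, at 0.154 CPM, and in BPA 250 library 4, at 0.346 CPM, against 0 in the others, which is 2 and 6 counts.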

How the results depend on the processing

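Of 1352 recomputed log2 fold changes of members against control, over the BPA mean and over the trend, 1304 stayed on their side of the threshold, 35 no longer passed, 13 newly passed and 0 reversed; 57 changed sign without passing in either fit. The members passing at EE2 0.5 were 1 at a threshold of 0.1, in DESeq2, in voom, with only the groups compared and without the 4 libraries that stood apart. Voom passed 1 at EE2 0.05, 4 at BPA 25000, 6 in the F test and 2 for the EE2 mean. It also passed 1 for the BPA mean against the EE2 mean and 2 for the trend. Over all 13312 genes voom passed 8869 in the F test and 2703 for the trend. For the EE2 mean it passed 1856 genes, and for the BPA mean against the EE2 mean 510. With only the groups compared, 0 passed at BPA 2.5, 0 for the BPA mean and 0 for the trend. In that setting 1 passed for the EE2 mean, where 612 of 12688 genes did. Nrg2 at BPA 2.5 and over the BPA mean then had adjusted p of 0.114 and 0.0686, and Erbb2 at BPA 2.5 0.113; these fits test fewer libraries. Without the 4 libraries that stood apart, 0 passed at BPA 2.5. Leaving out 1 library gave 0 to 2 members at BPA 2.5, 0 to 1 at BPA 25, 1 at BPA 250, 1 to 3 in the F test, 0 to 1 for the BPA mean and 0 to 2 for the trend, and 0 in the other comparisons. Over all genes, edgeR, DESeq2 and voom passed 6, 65 and 1375 at EE2 0.05, 74, 442 and 1221 at EE2 0.5, 1524, 1964 and 4103 at BPA 2.5, 256, 1080 and 2650 at BPA 25, 1170, 1842 and 2991 at BPA 250, 0, 87 and 0 at BPA 2500 and 309, 770 and 4116 at BPA 25000. With only the groups compared, edgeR passed 130, 301, 57, 1195, 1204, 1 and 282 in that order. The cause of these differences was not tested. No paired analysis was possible because the libraries are numbered in a single run over the groups, so groups share no replicate numbers. Depth limits Areg and Ereg most, with 78 and 28 counts in all.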
